A study of Mus musculus with 11 samples.

Results

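The genes described here are 38 genes of fatty acid oxidation in mouse kidney. They encode the enzymes that activate fatty acids, carry them into mitochondria as carnitine esters and shorten them there or in peroxisomes, together with the 2 regulators Ppara and Ppargc1a. Members were taken from a written list of gene symbols. Of these, 36 were found by the symbol in the deposited tables, and Eci1 and Eci2 by their Entrez numbers, since the tables still carry them as Dci and Peci. All 38, out of 16475 Entrez genes with values, were called above baseline in both strains by the authors and belong to the 14419 genes tested here.

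Whole kidneys of 2 lupus-prone strains were hybridised to Affymetrix arrays before nephritis. In all, 7 kidneys came from NZB/W mice at 6 weeks of age and 4 from NZW/BXSB mice at 8 weeks. The mice were untreated and free of proteinuria. The labels number the samples as replicates of a strain without stating that each came from a separate mouse, so the p-values measure the spread between these samples. The study describes the NZB/W mice as F1 females and the NZW/BXSB mice as F1 males, which carry the Y-linked Yaa locus, and states that the kidneys were perfused with saline before harvest. The strains also differ in sex and age. As deposited, their arrays lie on offset scales, so array handling, which is not labelled, may differ with strain too. The parts of strain, sex, age and array handling in any difference cannot be told apart. A whole kidney mixes all nephron segments, vessels and interstitium, and in such samples fewer cells of a type and less RNA per cell cannot be told apart. The question open to these samples is how the expression of the pathway differed between the kidneys of the strains before disease.

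Fatty acids are the main fuel of the kidney's proximal tubule, whose cells are rich in both mitochondria and peroxisomes. Acyl-CoA synthetases first join the fatty acid to coenzyme A, and long chains then pass the inner mitochondrial membrane as carnitine esters. A dehydrogenase, a hydratase, a second dehydrogenase and a thiolase shorten the chain in repeated rounds, and the electrons of the first step reach the respiratory chain through the electron transfer flavoprotein. Peroxisomes handle very long, branched and dicarboxylic chains with oxidases that make hydrogen peroxide. The nuclear receptor PPAR alpha, encoded by Ppara, and its coactivator, encoded by Ppargc1a, drive the transcription of many of these genes.

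All values are log2 expression. On the deposited arrays the tested genes had medians between 7.36 and 7.40 in the 7 NZB/W kidneys and between 8.05 and 8.14 in the 4 NZW/BXSB kidneys, so the median gene differed by -0.69 (NZB/W minus NZW/BXSB) before anything is said of fatty acid oxidation. Values and differences below are therefore on a common scale, made by quantile normalization over the 11 arrays, on which the median gene differed by -0.01, and "as deposited" marks the values without that step. A gene was called higher or lower in NZB/W at an adjusted p below 0.05 (limma, Benjamini-Hochberg over all tested genes). This limit was passed by 69.4% of the tested genes on the common scale (33.3% higher, 36.1% lower), and the members' counts are to be read beside those shares. As deposited, 5.56% of the genes were higher and 84% lower.

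Of the 38 members, 7 passed as higher in NZB/W (18.4%), 21 as lower (55.3%) and 10 were not called, and the median difference of the members was -0.21. In total 28 members were called (73.7%), close to the share of all genes. The kidneys of the strains did not overlap for 24 members (63.2%), against 54.6% of all tested genes. The members called higher were the coactivator gene Ppargc1a, the acyl-CoA synthetase genes Acsl1, Acsl4 and Acsl5, the peroxisomal oxidase gene Acox2, the thiolase gene Acaa2 and the medium-chain dehydrogenase gene Acadm. The lowest differences were those of Acox3, another peroxisomal oxidase gene, and Crot, the carnitine octanoyltransferase gene. With the study's limits (a fold of 1.4 or more, or 0.7 or less, with adjusted p not above 0.001), which 27.9% of all genes passed, 6 members were higher and 5 lower. As deposited, limma called 0 members higher (1 at an unadjusted p below 0.05, Acsl1) and 31 lower, and the members' median was -0.84 beside -0.69 for all genes. After median centring of the arrays in place of quantile normalization, 7 members were higher and 18 lower, and their median was -0.15 beside 0.01 for all genes.

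**Figure D1:**
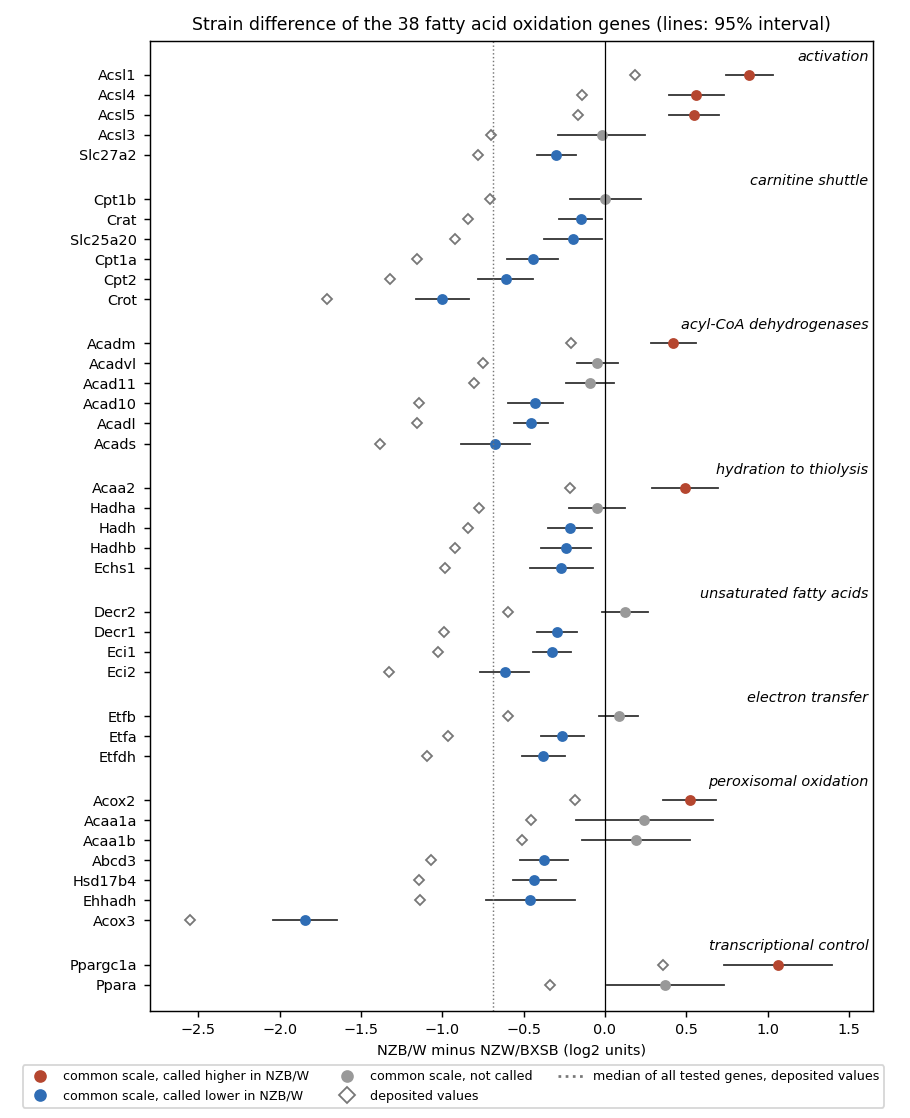
Difference between the strains for each member (NZB/W minus NZW/BXSB, log2 units on the x axis), grouped by role. Filled points and lines give the difference on the common scale and its 95% interval, open diamonds the difference as deposited, and the dotted line the median of all tested genes as deposited (-0.69). The 7 members called higher lie right of 0 on the common scale, and only Acsl1 and Ppargc1a do so as deposited.

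The extremes of the list were Acox3 and Crot on the lower side and Ppargc1a on the higher side. Acox3 (Entrez 80911) encodes the oxidase that opens the peroxisomal breakdown of branched chains such as pristanic acid. It lay between 7.63 and 8.15 in NZB/W kidneys, with a median of 7.79, against 9.78, 9.55, 9.66 and 9.78 in NZW/BXSB kidneys. The highest NZB/W kidney was thus more than 1 log2 unit below the lowest NZW/BXSB kidney. Acox3 was 3.58-fold higher in NZW/BXSB, a difference of -1.84 ± 0.09 (SE; limma adjusted p = 1.59e-09), and of -2.55 as deposited. Crot (Entrez 74114) encodes the enzyme that turns shortened peroxisomal acyl-CoA into carnitine esters, which can then leave for the mitochondria. Its NZB/W kidneys lay between 10.98 and 11.25 with a median of 11.12, and its NZW/BXSB kidneys at 11.97, 12.33, 12.16 and 11.998. The groups stood well apart, with a difference of -1.001 ± 0.08 (SE; limma adjusted p = 6.85e-08), that is 2.001-fold higher in NZW/BXSB. Ppargc1a (Entrez 19017) lay between 10.01 and 10.89 in NZB/W kidneys with a median of 10.56, against 9.52, 9.73, 9.39 and 9.23 in NZW/BXSB kidneys. NZB/W replicate 1 was the lowest of its strain and still above every NZW/BXSB kidney. The coactivator gene was 2.09-fold higher in NZB/W (1.07 ± 0.15, SE; limma adjusted p = 3.24e-05). As deposited its difference was 0.36 and not called (limma adjusted p = 0.0716).

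In RefSeq (GRCm38.p6) 7 of the 38 members lie on chromosome 5, a count not set beside the share of all tested genes. Acox3, Crot and Ppargc1a are among them. The windows of 250 bases before their start sites are shown because these genes differed most, with capitals for GC boxes (GGGCGG) and CCAAT boxes (CCAAT) found on either strand. Each runs 5′ to 3′ on the strand of its gene. Acox3 has its window at chr5:35582784-35583033 on the plus strand, Crot at chr5:8997147-8997396 on the minus strand and Ppargc1a at chr5:51567726-51567975 on the minus strand.
Acox3: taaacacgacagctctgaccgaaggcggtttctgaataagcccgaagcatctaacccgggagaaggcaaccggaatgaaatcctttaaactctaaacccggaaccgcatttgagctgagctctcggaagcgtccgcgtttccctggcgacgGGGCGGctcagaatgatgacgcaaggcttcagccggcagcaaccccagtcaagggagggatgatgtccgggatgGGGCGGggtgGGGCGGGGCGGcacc
Crot: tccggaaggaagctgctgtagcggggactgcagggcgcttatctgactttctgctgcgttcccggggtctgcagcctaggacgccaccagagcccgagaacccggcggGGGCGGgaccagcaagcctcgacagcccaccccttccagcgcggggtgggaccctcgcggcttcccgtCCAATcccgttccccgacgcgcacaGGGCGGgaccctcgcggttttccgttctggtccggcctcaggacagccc
Ppargc1a: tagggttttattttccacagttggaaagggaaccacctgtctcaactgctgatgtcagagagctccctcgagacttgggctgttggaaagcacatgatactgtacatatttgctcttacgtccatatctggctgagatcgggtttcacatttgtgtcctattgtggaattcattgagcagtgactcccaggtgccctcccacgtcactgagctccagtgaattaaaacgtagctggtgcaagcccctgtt
The Acox3 window holds 4 GC boxes, of which the last pair overlaps by 1 base, and its GC content is 60%. The Crot window holds 2 GC boxes and 1 CCAAT box at a GC content of 69.6%. The Ppargc1a window holds none of the searched letters at a GC content of 48%. RefSeq promoters were found for 33 members (36 promoters), and not for Cpt1b, Crat, Decr1, Hsd17b4 and Acaa2. A GC box was present in 61.1% of the 36 promoters, against 32.7% of all 32851 promoters of that length, and a CCAAT box in 41.7% against 33.9%. The TATAAA letters were in 0 of the 36, against 12.4% of all. The nuclear receptor site AGGTCA stood in 13.9% of the members' promoters (those of Acadm, Acadvl, Cpt1a, Echs1 and Slc27a2), against 14.0% of all. The direct repeat AGGNCANAGGNCA, the letters of a PPAR element on either strand, was in 0 of the 36 and in 0.338% of all promoters. The 32851 promoters were not limited to genes above baseline in these kidneys, as the members were. A comparison within such genes was not made. The motif counts are matches of letters within a short window and say nothing of which factor binds.

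Activation of fatty acids was the step with most members called higher in NZB/W, 3 of 5, with 1 lower and a median difference of 0.55. The long-chain acyl-CoA synthetases share 1 reaction and differ in the cell membrane they sit on and the chains they prefer. Acsl1 (Entrez 14081), the main synthetase of tissues that burn fat, lay between 11.41 and 11.62 in NZB/W kidneys with a median of 11.54. The NZW/BXSB kidneys stood at 10.62, 10.60, 10.82 and 10.48, all below the lowest NZB/W kidney. Acsl1 was 1.85-fold higher in NZB/W (0.89 ± 0.07, SE; limma adjusted p = 6.44e-08) and differed by 0.19 as deposited, where it was not called (limma adjusted p = 0.0542). Acsl5 (Entrez 433256), a synthetase of the mitochondrial and reticulum membranes, lay between 10.62 and 10.996 in NZB/W (median 10.87), against 10.21, 10.28, 10.34 and 10.32 in NZW/BXSB. The strains did not overlap, and the difference was 0.55 ± 0.07 (SE; limma adjusted p = 1.42e-05). Acsl4 (Entrez 50790), which prefers arachidonic acid and lies on the X chromosome, spanned 8.17 to 8.54 in NZB/W (median 8.26), with 7.83, 7.82, 7.76 and 7.74 in NZW/BXSB. It too was without overlap, at 0.56 ± 0.08 (SE; limma adjusted p = 2.51e-05), although Acsl4 and Acsl5 had the opposite sign as deposited (-0.14 and -0.16), less negative than the -0.69 of the median gene. Acsl3, a synthetase of lipid droplets and reticulum, was not called (-0.02, 95% interval from -0.29 to 0.25). Its NZB/W kidneys spanned 6.68 to 7.41, wider than the NZW/BXSB range, which ended at 7.23. Slc27a2, the very long chain synthetase and fatty acid transporter of the proximal tubule, was the exception, lower in NZB/W by -0.30 ± 0.06 (SE; limma adjusted p = 3.05e-04). That call was lost after median centring (-0.09, limma adjusted p = 0.171).

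The carnitine shuttle went the other way, with 5 of 6 members called lower in NZB/W by limma, 0 higher (0 also at an unadjusted p below 0.05) and a median difference of -0.32. Cpt1a (Entrez 12894) encodes the outer-membrane transferase that sets the rate of mitochondrial entry. It ranged from 10.37 to 10.65 in NZB/W kidneys with a median of 10.51, against 10.90, 11.10, 11.06 and 10.76 in NZW/BXSB kidneys. No kidneys overlapped, and the difference was -0.44 ± 0.07 (SE; limma adjusted p = 9.44e-05). Cpt2 (Entrez 12896), the partner on the inner membrane that restores acyl-CoA, ranged from 10.77 to 11.20 in NZB/W (median 11.01), with 11.46, 11.54, 11.66 and 11.70 in NZW/BXSB. It was 1.53-fold higher in NZW/BXSB, again without overlap (-0.61 ± 0.08, SE; limma adjusted p = 1.20e-05). The carnitine-acylcarnitine carrier gene Slc25a20 (Entrez 57279) was closer to the limit. Its NZB/W kidneys ran from 9.39 to 9.85 with a median of 9.52, and the NZW/BXSB kidneys were 9.65, 9.86, 9.83 and 9.63. Only NZB/W replicate 5 reached into the NZW/BXSB range, and the difference was -0.20 ± 0.08 (SE; limma adjusted p = 0.0457). The call of Slc25a20 was lost in 8 of the 11 fits that left out 1 kidney, and that of Crat, the carnitine acetyltransferase gene (-0.15, limma adjusted p = 0.0447), was also lost in 8 of 11. Without NZW/BXSB replicate 2, for example, Slc25a20 differed by -0.16 (limma adjusted p = 0.142) and Crat by -0.14 (limma adjusted p = 0.101).

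Cpt1b (Entrez 12895), the form of the outer transferase known from muscle and brown fat, was the 1 shuttle gene not called. Its NZB/W kidneys spanned 8.13 to 8.59 with a median of 8.45, and the NZW/BXSB kidneys were 8.13, 8.39, 8.47 and 8.56. The ranges were nearly the same, and the 95% interval of the difference, centred near 0, ran from -0.22 to 0.22. The brown fat marker Ucp1 averaged 8.19 ± 0.36 in the 7 NZB/W kidneys and 8.88 ± 0.65 in the 4 NZW/BXSB kidneys (SD). Of the 7 brown fat markers, Cpt1b among them, NZB/W had 2 higher and 3 lower. The 2 higher were the dim Elovl3 and Dio2, with NZB/W means of 5.86 and 5.60. The 3 lower were Ucp1, Cidea and Cox8b, with NZB/W means of 8.19, 8.44 and 8.09. The list mean of the 7 ran from 7.44 to 7.86 in NZB/W and from 7.37 to 8.14 in NZW/BXSB. How far fat attached to the kidney sets the Cpt1b level was not tested.

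**Figure D2:**
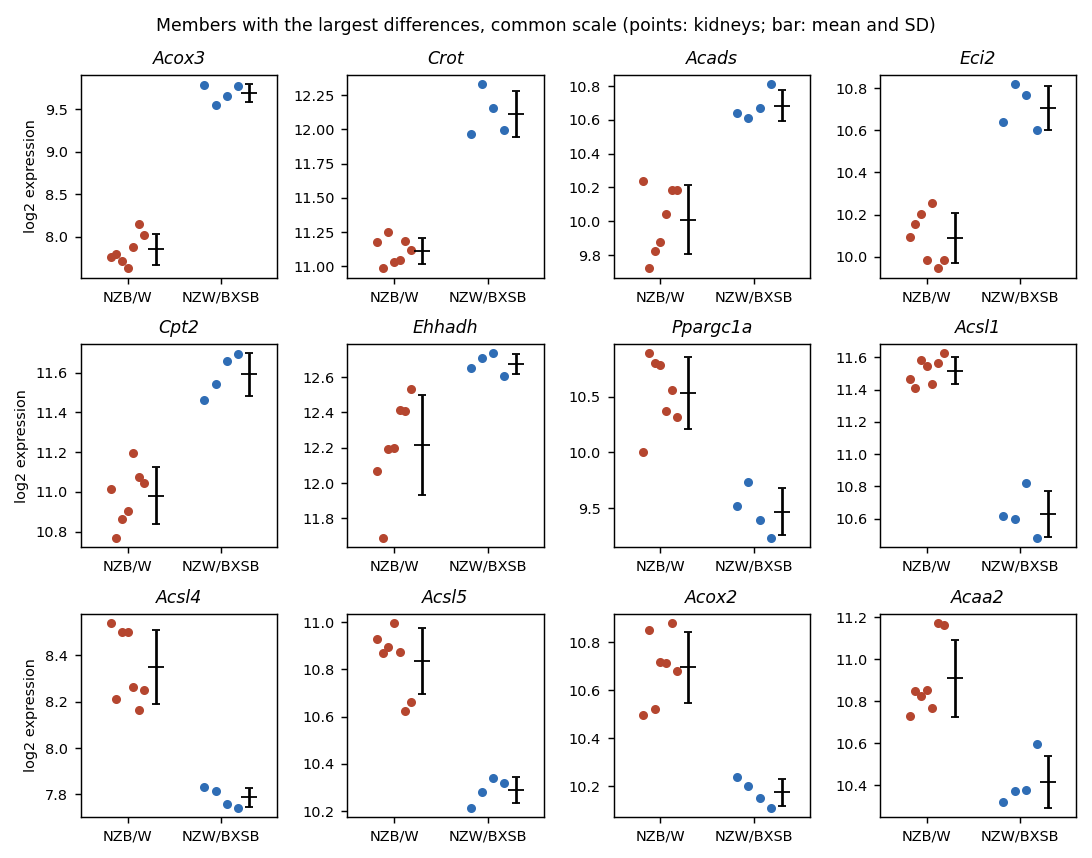
Log2 expression on the common scale (y axis) of the 6 members with the largest differences in each direction among called members whose kidneys did not overlap. Points are kidneys (7 NZB/W, 4 NZW/BXSB), and the bars are mean and SD. Acox3 shows the widest gap, with NZB/W kidneys at 8.15 or below and NZW/BXSB kidneys at 9.55 or above.

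Among the acyl-CoA dehydrogenases, which take the first electrons from chains of different length, 1 of 6 was called higher and 3 lower. The medium-chain gene Acadm was the one above, and the short-chain and long-chain genes Acads and Acadl were below. Acadm (Entrez 11364) lay between 12.93 and 13.27 in NZB/W kidneys (median 13.21), against 12.68, 12.84, 12.77 and 12.73 in NZW/BXSB kidneys. NZB/W replicate 2 was apart from the other NZB/W kidneys, which were at 13.17 or above, but still exceeded all NZW/BXSB kidneys. The difference was 0.42 ± 0.06 (SE; limma adjusted p = 5.62e-05) on the common scale and turned to -0.21 as deposited, where Acadm was called lower (limma adjusted p = 0.0124). Acads (Entrez 11409) lay between 9.72 and 10.24 in NZB/W (median 10.04), with 10.64, 10.61, 10.67 and 10.81 in NZW/BXSB. It was 1.59-fold higher in NZW/BXSB and without overlap (-0.67 ± 0.10, SE; limma adjusted p = 3.52e-05). Acadl (Entrez 11363), the long-chain enzyme, had one of the tightest spreads of the list, from 11.47 to 11.64 in NZB/W (median 11.51), with 11.90, 11.96, 12.03 and 12.03 in NZW/BXSB. The difference was -0.45 ± 0.05 (SE; limma adjusted p = 2.00e-06). Acad10, a less studied relative, was lower by -0.43 (limma adjusted p = 2.76e-04), also without overlap. The very long chain gene Acadvl (Entrez 11370) was not called. It ranged from 11.63 to 11.91 in NZB/W (median 11.83) and from 11.79 to 11.84 in NZW/BXSB, with a difference of -0.05 and a 95% interval from -0.17 to 0.08. Acad11 was not called either (-0.09, 95% interval from -0.24 to 0.05).

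Hydration, the second oxidation and thiolysis were covered by 5 mitochondrial genes, of which 3 were called lower, 1 higher and 1 not called. Hadha (Entrez 97212) and Hadhb encode the subunits of the trifunctional protein, which carries out these steps on long chains. Hadha spanned 10.77 to 11.11 in NZB/W (median 11.002) and 10.92 to 11.17 in NZW/BXSB. The ranges overlapped in part, at a difference of -0.05 and a 95% interval from -0.22 to 0.12. Hadhb was called lower by -0.24 ± 0.07 (SE; limma adjusted p = 0.00957), and the test of whether the subunits differed from each other was not made. The genes for shorter chains, Echs1 (enoyl-CoA hydratase) and Hadh (hydroxyacyl-CoA dehydrogenase), were lower by -0.27 (limma adjusted p = 0.0164) and -0.21 (limma adjusted p = 0.00839). The call of Echs1 was lost without NZW/BXSB replicate 4 (-0.22, limma adjusted p = 0.0614), and that of Hadh after median centring (-0.15, limma adjusted p = 0.185). Acaa2 (Entrez 52538), the mitochondrial thiolase gene of the last step, was above in NZB/W. It ran from 10.73 to 11.17 in NZB/W kidneys (median 10.85), against 10.32, 10.37, 10.38 and 10.60 in NZW/BXSB kidneys. NZB/W replicates 6 and 7 were the highest and NZW/BXSB replicate 4 the highest of its strain, without overlap. Acaa2 was 1.41-fold higher (0.49 ± 0.09, SE; limma adjusted p = 3.54e-04), with the opposite sign as deposited (-0.21).

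The auxiliary enzymes of unsaturated chains, which move or remove double bonds, were lower in 3 of 4 cases, with a median of -0.31. Eci2 (Entrez 23986), an enoyl-CoA isomerase found in mitochondria and peroxisomes, lay between 9.94 and 10.26 in NZB/W (median 10.09), with 10.64, 10.82, 10.77 and 10.60 in NZW/BXSB. Every NZW/BXSB kidney was above every NZB/W kidney, a 1.53-fold excess (-0.62 ± 0.07, SE; limma adjusted p = 3.87e-06). Its mitochondrial relative Eci1 (-0.32) and the mitochondrial dienoyl-CoA reductase gene Decr1 (-0.29) were lower without overlap. The peroxisomal reductase gene Decr2 was not called (0.12, 95% interval from -0.02 to 0.26) but was called higher without NZB/W replicate 4 (0.15, limma adjusted p = 0.0433). In electron transfer, Etfdh (Entrez 66841), the membrane oxidoreductase that hands electrons to ubiquinone, ranged from 10.88 to 11.21 in NZB/W (median 11.06), against 11.38, 11.45, 11.42 and 11.43 in NZW/BXSB. The NZW/BXSB kidneys were nearly identical, and the difference was -0.38 ± 0.06 (SE; limma adjusted p = 8.97e-05). Etfa, 1 subunit of the flavoprotein, was lower by -0.26 (limma adjusted p = 0.00178), and its partner Etfb was not called (0.09, 95% interval from -0.03 to 0.21).

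Of the 7 genes of peroxisomal oxidation 4 were lower in NZB/W, 1 was higher and 2 were not called, with a median of -0.38. Acox2 (Entrez 93732), the oxidase of bile acid side chains and branched chains, differed in the direction opposite to Acox3. It ran from 10.50 to 10.88 in NZB/W (median 10.71), with 10.24, 10.20, 10.15 and 10.11 in NZW/BXSB. The kidneys did not overlap, and the difference was 0.52 ± 0.07 (SE; limma adjusted p = 3.21e-05), with the opposite sign as deposited (-0.19, limma adjusted p = 0.0867). Ehhadh (Entrez 74147), the bifunctional enzyme of straight and dicarboxylic chains, varied within NZB/W from 11.69 in replicate 2 to 12.53 in replicate 7 (median 12.20). The NZW/BXSB kidneys were tight at 12.65, 12.71, 12.73 and 12.61. All lay above the NZB/W kidneys, by a difference of -0.46 ± 0.13 (SE; limma adjusted p = 0.00526). Hsd17b4, the other bifunctional enzyme, which serves branched chains, was lower by -0.43 (limma adjusted p = 2.76e-05), and Abcd3, which imports acyl-CoA through the peroxisomal membrane, by -0.38 (limma adjusted p = 2.37e-04). The peroxisomal thiolase genes Acaa1a and Acaa1b are close paralogues, so the probes of one may pick up RNA of the other, which was not tested. Acaa1a (Entrez 113868) ranged from 7.06 to 8.23 in NZB/W (median 7.57), with 7.40, 7.77, 7.46 and 6.87 in NZW/BXSB. Acaa1b (Entrez 235674) ranged from 11.43 to 12.56 in NZB/W (median 12.01), with 11.74, 11.98, 11.83 and 11.86 in NZW/BXSB. For both the kidneys overlapped, NZB/W replicate 2 was highest and NZB/W replicate 1 lowest of its strain. Neither was called (0.24, 95% interval from -0.18 to 0.66, and 0.19, from -0.14 to 0.53), but Acaa1b was called higher without NZB/W replicate 1 (0.29, limma adjusted p = 0.0325).

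Sorted by place, 13 of the 19 genes that act only in mitochondria were lower and 2 higher (median -0.26). Of the 10 genes that start or serve oxidation in peroxisomes, 6 were lower and 1 higher (median -0.34). Some gaps between members do not rest on the scale between the arrays, since a shift shared by all genes cancels out. The differences of Acox2 and Acox3 were 2.36 apart on the common scale and 2.36 apart as deposited, those of Acsl1 and Cpt1a 1.33 and 1.34, those of Acadm and Acads 1.09 and 1.17, and those of Acaa2 and Cpt2 1.10 and 1.11. These pairs were picked after their values were seen and carry no test.

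**Figure D3:**
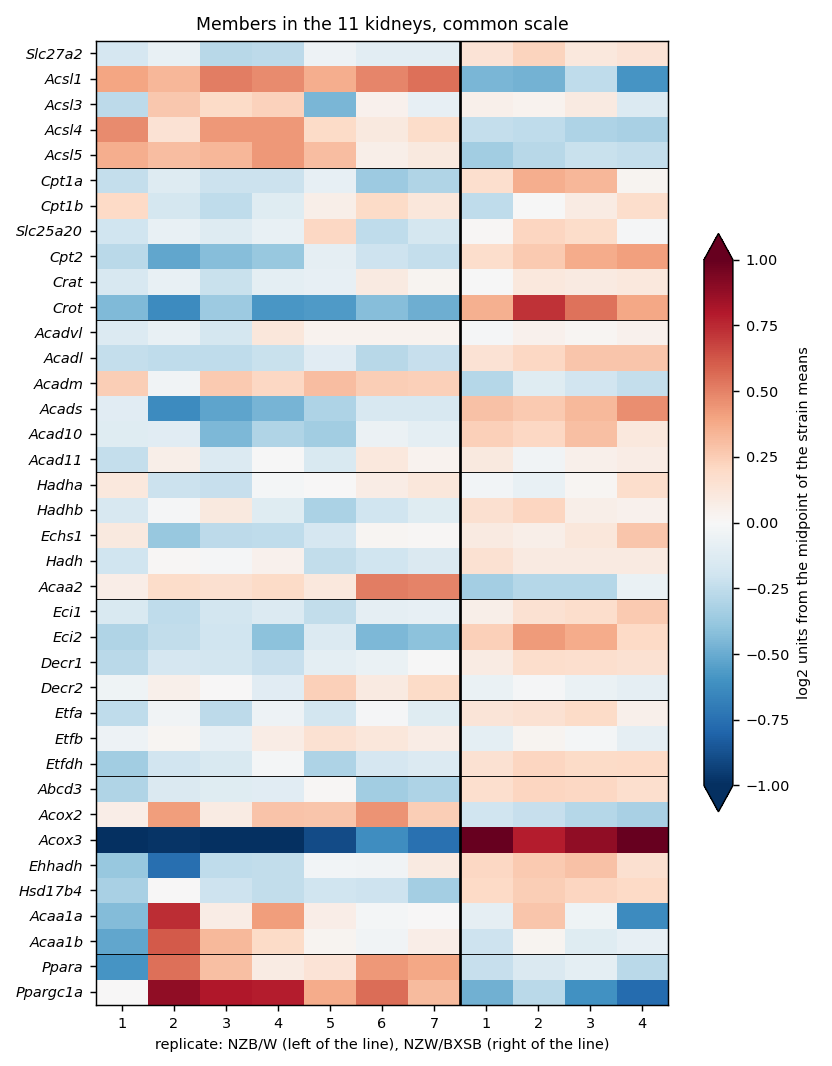
Each member (rows, by role) in each kidney (columns), as log2 units from the midpoint between the means of the strains on the common scale, with NZB/W left of the line. The synthetase rows Acsl1, Acsl4 and Acsl5 are red in NZB/W and blue in NZW/BXSB, and most rows of the carnitine shuttle run the other way.

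Ppara (Entrez 19013), the receptor gene, was not called on the full set of kidneys. Its NZB/W values spanned 9.12 to 10.26 with a median of 10.01, and its NZW/BXSB values were 9.48, 9.56, 9.61 and 9.44. In NZB/W 6 of the 7 kidneys were at 9.79 or above and thus above all NZW/BXSB kidneys, while replicate 1 was below them. The difference was 0.37 ± 0.17 (SE; limma adjusted p = 0.0613), and without NZB/W replicate 1 it was 0.50 and called (limma adjusted p = 2.63e-04). As deposited, Ppara had the opposite sign (-0.34). The same kidney was the lowest NZB/W sample for Ppargc1a, Acaa1a and Acaa1b, and replicate 2 was the highest of its strain for all of them, Ppara included, and the lowest for Ehhadh, Acadm and Cpt2. Replicate 2 also held the least signal of adrenal cortex markers, with a list mean of 5.58, while the rest of that strain lay between 8.19 and 9.51. The part of attached adrenal tissue was not tested, and without replicate 2 only the calls of Slc25a20 and Crat were lost among the members. Across the members, NZB/W replicate 1 was the lowest NZB/W kidney for 9 of 38 genes and replicate 5 the highest for 10. Among the NZW/BXSB kidneys replicate 2 was highest for 17, and replicates 1 and 4 were lowest for 16 and 15. The spread between kidneys of 1 strain was like that of all genes: the median SD of the members was 0.13 in NZB/W and 0.08 in NZW/BXSB, against 0.12 and 0.08 over all tested genes. The largest SD in NZB/W was that of Ppara (0.38).

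**Figure D4:**
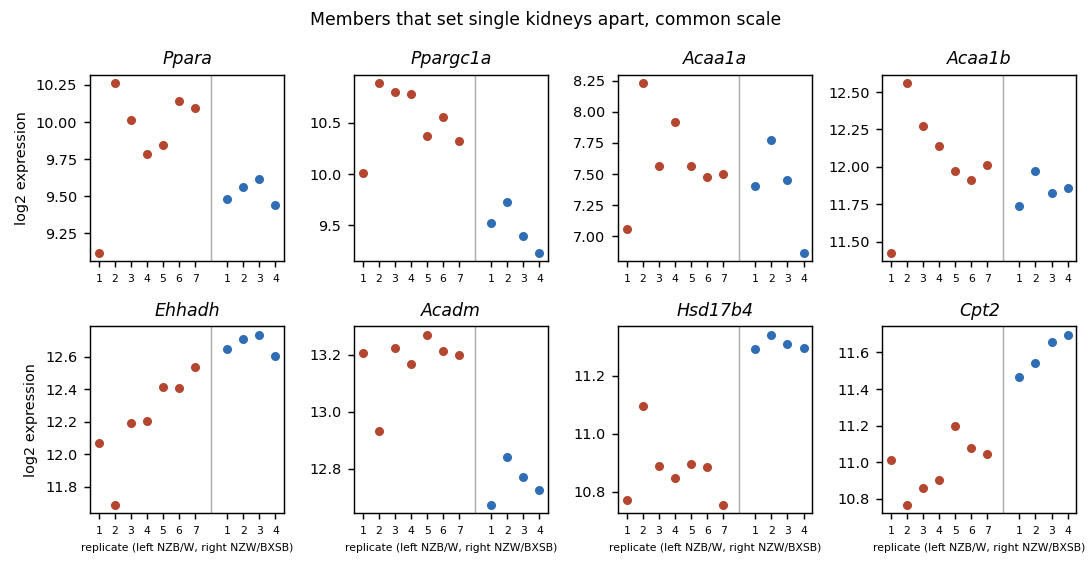
Log2 expression on the common scale (y axis) in each kidney by replicate number (x axis, NZB/W left of the line, NZW/BXSB right) for 8 members with kidneys apart from the rest of their strain. NZB/W replicate 1 is lowest and replicate 2 highest for Ppara, Ppargc1a, Acaa1a and Acaa1b, and replicate 2 is lowest for Ehhadh, Acadm and Cpt2. Replicate numbers have no order.

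Other genes of the pathway are given by further lists, which hold none of the 38 except in that of PPAR alpha targets. Among 14 further regulators 5 were higher in NZB/W and 2 lower (median 0.06). Ppargc1b, the sister coactivator, averaged 9.99 ± 0.18 in the NZB/W kidneys and 9.14 ± 0.21 in the NZW/BXSB kidneys (SD, n = 7 and n = 4), and was higher by 0.85 (0.13 as deposited, where it was not called, limma adjusted p = 0.308). The receptor gene Esrrg, a partner of these coactivators, was higher by 0.59 and the mitochondrial transcription factor gene Tfam by 0.39, both with the opposite sign as deposited (-0.12 and -0.32). Of 22 known targets of PPAR alpha, 6 of them members, 6 were higher and 11 lower (median -0.23). These counts repeat in part the members' own results: Cpt1a, Cpt2, Ehhadh and Slc25a20 were lower, Acadm was higher and Acaa1b was not called. Over all tested genes 33.3% were higher and 36.1% lower. They moved both ways at the extremes: Cyp4a14, a fatty acid hydroxylase gene, was higher by 2.998, and Angptl4, an inhibitor of lipoprotein lipase, lower by -1.31. The SD of Cyp4a14 in NZW/BXSB was 0.66, the widest of the genes named here.

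Uptake, binding and activation of fatty acids outside the members had 8 of 13 genes lower and 0 higher by limma (0 also at an unadjusted p below 0.05; median -0.29). The fatty acid receptor gene Cd36 was 4.11-fold higher in NZW/BXSB, averaging 9.27 ± 0.17 in NZB/W kidneys and 11.31 ± 0.13 in NZW/BXSB kidneys (SD). The peroxisomal acyl-CoA binding gene Acbd5 (-0.88) and the hormone-sensitive lipase gene Lipe (-0.62) were lower as well. White fat markers, measured beside them, were higher for 4 and lower for 2 of 10, and their list mean ran from 8.08 to 9.23 in NZB/W and from 8.48 to 8.75 in NZW/BXSB. The part of attached fat in the values of Cd36 and Lipe was not tested. In carnitine uptake and synthesis 3 of 7 genes were higher and 2 lower. The mitochondrial carrier gene Slc25a29 was higher by 0.95 and Bbox1, whose enzyme makes carnitine in its last step, by 0.64 (-0.05 as deposited). The carnitine transporter gene Slc22a21 was not above baseline in NZB/W and is given no fold. In ketone body synthesis and use 5 of 8 genes were lower and, also at an unadjusted p below 0.05 in limma, 0 higher (median -0.31), among them Slc16a6, a transporter that exports ketone bodies from the liver (-1.53), and Acat1, the thiolase of ketone body use (-0.57).

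In the breakdown of branched and odd chains 8 of 17 genes were lower and 1 higher, with -0.81 for Hibch, a hydrolase of valine breakdown. Of 11 genes listed around malonyl-CoA, the inhibitor of CPT1, 9 were found, most of them genes of the AMP-activated kinase. The carboxylase genes Acaca and Acacb were not found, so the making of malonyl-CoA is not covered. Of the 9 genes 2 were higher and 3 lower, and both higher calls were lost after median centring. Mlycd, the decarboxylase gene, was lower by -0.40. Prkaa1, 1 of the genes for the catalytic subunit of the AMP-activated kinase, was lower by -0.70, and its upstream kinase gene Stk11 by -0.30. The other catalytic subunit gene, Prkaa2, named after its value was seen, was higher by 0.35 (limma adjusted p = 0.0343) and had the opposite sign as deposited (-0.36). Of the acyl-CoA thioesterases, which release fatty acids from coenzyme A, 3 of 11 were higher and 4 lower, with -1.54 for Acot12 and -0.93 for Acot9. On the higher side, Acot7 (1.55) and Acot3 (1.31), both named after their values were seen, were also called higher as deposited. Other peroxisomal oxidation genes were lower in 9 of 18 cases and higher in 3. Amacr, the racemase that readies branched chains for oxidation, was 3.17-fold higher in NZW/BXSB (10.77 ± 0.18 in NZB/W and 12.44 ± 0.07 in NZW/BXSB, SD), and Hacl1, the lyase of alpha-oxidation, 2.84-fold higher in NZB/W (11.11 ± 0.07 in NZB/W and 9.60 ± 0.12 in NZW/BXSB, SD). Of the peroxins, which build peroxisomes, 4 of 17 were higher and 7 lower, with -0.45 for both Pex11g and Pex10. As a view on mitochondrial content, 5 of 20 genes of the tricarboxylic acid cycle and the mitochondrial outer membrane were higher and 4 lower (median -0.03), and after median centring 4 were higher and 1 lower. Sdhd, a subunit of succinate dehydrogenase, was higher by 0.34 (-0.37 as deposited) and Ogdh lower by -0.29. The named genes of these lists had limma adjusted p below 0.05 on the common scale.

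**Figure D5:**
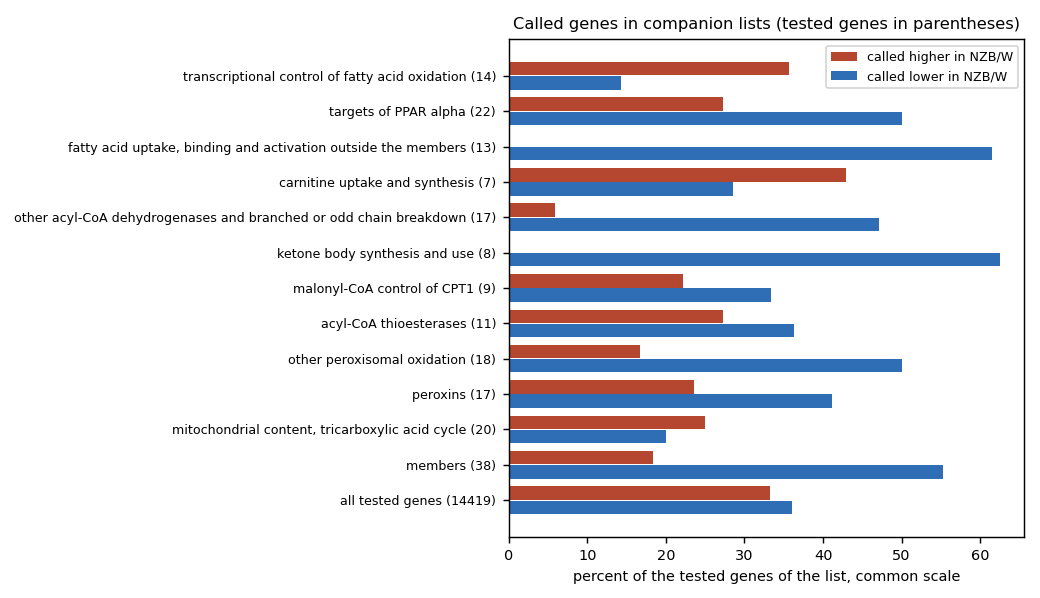
Percent of the tested genes of each list called higher or lower in NZB/W on the common scale (x axis, bars from 0), with the number of tested genes in parentheses, above the bars of the members and of all tested genes. Uptake and ketone body lists have no gene called higher, and the tricarboxylic acid cycle list has similar shares in both directions on this scale, though not after median centring (4 higher, 1 lower).

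Cell type markers were set beside these values to check the tissue. Of 13 proximal tubule markers 8 were higher and 3 lower in NZB/W, with list means from 11.35 to 11.64 in NZB/W and from 11.26 to 11.31 in NZW/BXSB. The straight part of the proximal tubule had 3 of 6 markers lower and 1 higher, with list means from 9.28 to 9.69 in NZB/W and from 10.50 to 10.63 in NZW/BXSB. These means lean on 1 marker, Slc7a13, which was lower by -5.33 and also belongs to the male-biased genes. Of the others, Atp11a (-1.42) and Aqp7 (-0.65) were lower and Slc3a1 was higher (0.46). Slc5a1 (0.06) and Slc22a7 (0.04) were not called. Genes known to be male-biased in kidney were lower in NZB/W in 12 of 12 cases, with list means from 8.62 to 8.74 in NZB/W and from 12.55 to 12.71 in NZW/BXSB. Thick ascending limb and distal convoluted tubule markers were each higher in 6 of 7 cases. Of 8 adrenal cortex markers 3 were higher in NZB/W (median 0.89), with list means from 5.58 to 9.51 in NZB/W and from 6.93 to 7.89 in NZW/BXSB. Of 9 leukocyte markers 4 were higher and 3 lower, with differences from -0.86 to 0.66. Their list means, in which such differences cancel, ran from 6.91 to 7.19 in NZB/W and from 6.94 to 7.15 in NZW/BXSB. Of 10 markers of skeletal or cardiac muscle, 4 were not above baseline in each strain. The part of nephron segments, sex and attached tissue in the differences of the fatty acid oxidation genes was not tested.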

How the data were processed

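Gene expression was measured in 7 whole kidneys of NZB/W mice and 4 of NZW/BXSB mice, grouped by the sample titles. The authors labelled total RNA as biotinylated cRNA for Affymetrix arrays, applied RMA (named without a version in the submitters' processing notes) and deposited log2 values per Entrez gene. Their methods state joint normalization and batch correction. The sources used here do not give the genome build of the array. A Yes or No call per gene and strain for expression above a baseline on negative control probes was also deposited. The value table held 16539 rows, of which 64 were control probe sets, 3 of them without values. Of the Entrez genes 16229 were named through RefSeq (GRCm38.p6), and the others kept the deposited symbol.

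The 11 arrays were quantile normalized (normalizeBetweenArrays), because the deposited arrays of the strains lie on offset scales. This assumes 1 shared distribution, so a true shift of most genes one way would be removed. Every gene with a Yes call in 1 strain or both was tested with limma 3.58.1 (lmFit, eBayes, R 4.3.3). The script was tested on simulated data with known changes in a small share of the genes, as many up as down. That test does not cover data in which most genes are called, as here (69.4%). Differences are NZB/W minus NZW/BXSB. With 7 against 4 kidneys an exact two-sided permutation test has 330 splits, and its smallest p is 0.00303. The number of arrays limits the precision. No batch or date is labelled, and no 2 arrays were near-identical beyond the others.

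Members, lists and alternatives were chosen with earlier results of these data known. Values of all kidneys are given for the 6 largest differences in each direction among called members without overlap and for 14 fixed genes, and up to 3 genes with the smallest p per further list are named, of which some are not reported here. Alternatives were the deposited values, median centring, no filter or a filter on both strains, a trended or robust variance prior, the study's limits, a replicate block, and leaving out single kidneys or NZB/W replicates 6 and 7.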

Additional observations from a re-analysis of the deposited data

Results flagged for a closer look

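In 7 of the 76 sets of values tested (each member in each strain), 1 kidney lay farther from the rest than Dixon's limit allows. Chance alone gives about 1 in 20 for a single set, but the sets share kidneys, and the number of flags was not tested against chance. Of the 7 flags, 5 were in NZB/W and 2 in NZW/BXSB. NZB/W replicate 1 had 9.12 for Ppara, with the other NZB/W kidneys at 9.79 to 10.26. NZB/W replicate 2 had 12.93 for Acadm (others 13.17 to 13.27) and 11.10 for Hsd17b4 (others 10.75 to 10.90). NZB/W replicate 5 had 9.85 for Slc25a20 (others 9.39 to 9.57) and 11.64 for Acadl (others 11.47 to 11.53). NZW/BXSB replicate 1 had 8.79 for Crat (others 8.89 to 8.90) and 12.98 for Hadh, where the other 3 share 12.93 because equal ranks receive equal values in quantile normalization. As deposited, Hadh was 13.35 in NZW/BXSB replicate 1, within the range of the others (13.23 to 13.37), so that flag rests on the tied values. Ppara was called without NZB/W replicate 1 (0.50, limma adjusted p = 2.63e-04). Leaving out NZB/W replicate 2 ended neither the call of Acadm nor that of Hsd17b4, and leaving out NZB/W replicate 5 did not end that of Acadl.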

How the results depend on the processing

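In every refit at the same threshold, that on deposited values included, 15 of the 28 called members kept both sign and call. All 15 were lower in NZB/W, among them Cpt1a, Cpt2, Crot, Acadl, Acads, Eci2, Etfdh, Acox3, Ehhadh and Hsd17b4. As deposited 84% of all genes were called lower and 5.56% higher, so keeping a lower call there says little of these members. With the deposited values set aside, 22 of the 28 kept both sign and call, among them all 7 members called higher. With the study's limits 4019 genes passed, and 6 members were higher and 5 lower. As deposited, 0 members were higher and the members' median was -0.84, and after median centring it was -0.15. Leaving out single kidneys gave 9312 to 10014 called genes, 7 to 9 members higher, 19 to 21 lower and a median of -0.22 to -0.18. Signs turned as deposited for Acsl4 (-0.14), Acsl5 (-0.16), Cpt1b (-0.71), Acadm (-0.21), Acaa2 (-0.21), Decr2 (-0.60), Etfb (-0.60), Acox2 (-0.19), Acaa1a (-0.45), Acaa1b (-0.51), Ppara (-0.34), Esrrg (-0.12), Tfam (-0.32), Bbox1 (-0.0453) and Sdhd (-0.37), where the median of all genes is -0.69. Genes near 0 turned too: Cpt1b with median centring (-0.0108), with a replicate block (-0.0863), without NZB/W replicates 6 and 7 (-0.0576) and over single kidneys left out (-0.0810 to 0.0620), Acsl3 with the block (0.10) and over single kidneys left out (-0.0723 to 0.0541), and Hadha over single kidneys left out (-0.0805 to 0.00197, above 0 only without NZW/BXSB replicate 4). The deviations of same-numbered kidneys from their strain means, over all tested genes, correlated between -0.13 and 0.28 in 4 pairs. Pairs of different numbers ran from -0.28 to 0.39, so the numbers were not taken to pair kidneys. The replicate block left 9285 genes called between strains, 7 members higher and 19 lower, without the calls of Hadhb (-0.17, limma adjusted p = 0.0875) and Hadh (-0.15, limma adjusted p = 0.118). The cause of these changes was not tested. With 4 kidneys in 1 strain, differences of a size like that of Slc25a20 and Crat stand at the limit of the test.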
